A study of Mus musculus with 2 samples.

Results

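The replication-dependent histone genes supply the histones that package newly copied DNA. Here they were taken as the protein-coding genes whose symbol in the GENCODE M1 annotation of the mouse genome build mm9 starts with Hist1h, Hist2h, Hist3h or Hist4h. The rule gave 67 genes of 22225 protein-coding symbols, and 3 further histone symbols were left out because the annotation does not class them as protein-coding. By class there were 6 genes of the linker histone H1, 19 of H2A, 18 of H2B, 11 of H3 and 13 of H4. Within this rule a gene's symbol decided its membership, and its peaks did not.

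Occupancy of POU5F1 (OCT4), a POU-domain transcription factor of pluripotent cells, had been measured by chromatin immunoprecipitation and sequencing (ChIP-seq) in E14TG2a.4, a male embryonic stem cell line of mouse strain 129/Ola. The study has 1 group of 2 biological replicates of this line. The labels name no treatment or genetic change and give both replicates the same donor. No control library was analysed here. On mm9 the authors' peak lists held 5515 peaks for the whole series, 1330 for replicate 1 and 6324 for replicate 2.

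Most histone genes of this kind are intronless, lie in dense clusters, are transcribed in S phase at a nuclear body organised by NPAT, and give mRNAs that end in a stem-loop bound by SLBP in place of a poly(A) tail. H2B promoters are known for a conserved octamer, which in somatic cells is bound by the ubiquitous POU factor OCT1 (POU2F1). POU5F1 binds the same octamer, and in embryonic stem cells often does so beside a SOX2 site in a composite element. The question was where POU5F1 peaks lie relative to the histone genes and whether they lie on the octamer promoters.

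The octamer is shown first because the histone classes differ in it. It was searched as ATGCAAAT on both strands, from 250 bases before to 50 after the 5′ end of each gene record. The 32 bases around the octamer are printed for the 8 H2B genes with an exact match, read 5′ to 3′ along the gene from mm9, with the octamer in capitals. It reads ATTTGCAT here because in all 8 genes it lies on the strand opposite to the gene.
Hist1h2ba, chr13:24026170-24026201, minus strand: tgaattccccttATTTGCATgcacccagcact
Hist1h2bb, chr13:23838501-23838532, plus strand: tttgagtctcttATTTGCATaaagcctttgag
Hist1h2bc, chr13:23775939-23775970, plus strand: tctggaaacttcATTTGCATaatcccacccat
Hist1h2bg, chr13:23663198-23663229, plus strand: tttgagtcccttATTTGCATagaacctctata
Hist1h2bk, chr13:22127648-22127679, plus strand: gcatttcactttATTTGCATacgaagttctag
Hist1h2bm, chr13:21813876-21813907, plus strand: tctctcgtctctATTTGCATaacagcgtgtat
Hist2h2bb, chr3:96073563-96073594, plus strand: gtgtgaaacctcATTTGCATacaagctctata
Hist2h2be, chr3:96024984-96025015, plus strand: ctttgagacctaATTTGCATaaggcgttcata

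The first base of these octamers lay at positions -164 to -25 relative to the annotated start, with a median of -62. Hist1h2ba, which encodes a testis-specific H2B, held the farthest site, at -164. Hist1h2bm held the nearest, at -25. The exact octamer was thus in 8 of 18 H2B promoters (44.4%) and in 7 of 19 H2A promoters. It was in none of the 6 H1, 11 H3 and 13 H4 promoters. In 9 of 67 genes, Hist1h2ba and Hist4h4 among them, the annotated start is the coding start, so distances there are counted from the first codon. Over all 22225 protein-coding promoters, 386 held it (1.74%).

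With 1 mismatch allowed, 16 of 18 H2B promoters had a match, against 17.3% of all promoters. Among the mismatched sites 1 substitution recurred, C6A, with positions counted from 1 at the 5′ end of ATTTGCAT. The form with C6A, ATTTGAAT, was in 8 of 18 H2B promoters and in 6 of 19 H2A promoters, against 1.18% of all promoters. Neighbouring H2A and H2B genes can share 1 site, as Hist1h2ad and Hist1h2bf do. Hist1h2bq and Hist1h2br have the same 32 bases around theirs. Promoters counted here, as for the exact form, are therefore not all separate sites. Exact and C6A forms together covered 15 of 18 H2B genes, and Hist1h2bl, Hist1h2bn and Hist3h2ba had neither. The 32 bases around 4 of the C6A sites are shown to set them beside the exact octamers, with capitals on the site.
Hist1h2bf, chr13:23666111-23666142, minus strand: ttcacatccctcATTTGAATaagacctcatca
Hist1h2bj, chr13:22135009-22135040, plus strand: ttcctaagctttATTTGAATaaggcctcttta
Hist1h2bp, chr13:21879298-21879329, plus strand: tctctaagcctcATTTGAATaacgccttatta
Hist1h2bq, chr13:21902095-21902126, minus strand: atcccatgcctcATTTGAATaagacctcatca

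Other promoter elements also differed between the classes. The CCAAT box, bound by the factor NF-Y, was in every H1, H2A and H2B promoter, in 10 of 11 H3 promoters and in 4 of 13 H4 promoters. Over the 67 genes this came to 57, against 38.1% of all promoters. The TATA box (TATAAA) was in 38 of 67 histone promoters, against 13.5% of all promoters. The H1 box (AAACACA), an element known from linker histone promoters, was in 5 of 6 H1 promoters, against 6.44% of all promoters. The MORE palindrome, on which POU factors bind as dimers, was in no protein-coding promoter of this length.

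**Figure D1:**
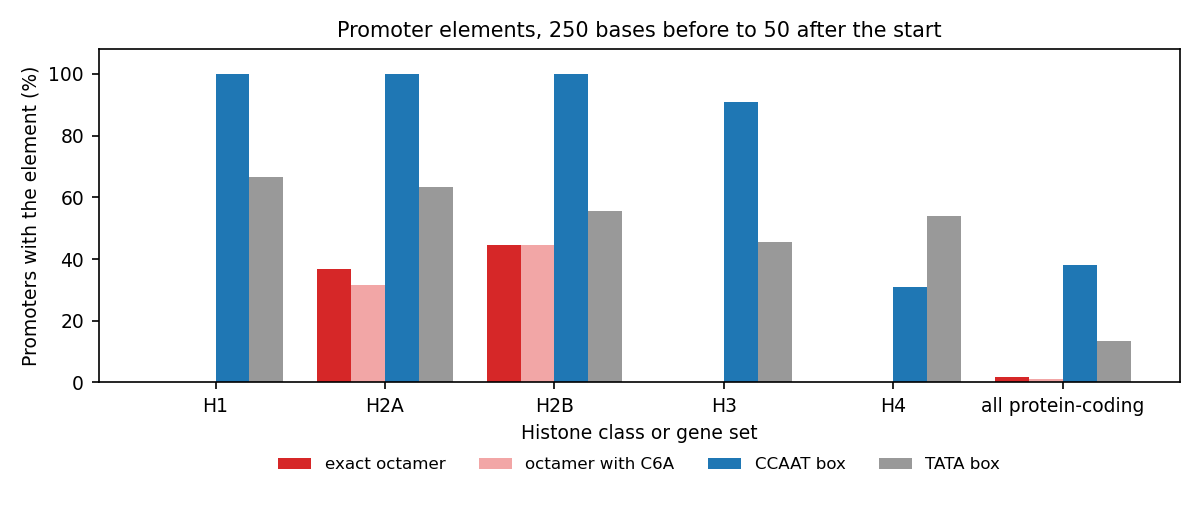
Share of promoters (percent, vertical axis) that hold the exact octamer, the octamer with C6A, the CCAAT box and the TATA box, for each histone class and for all 22225 protein-coding genes (horizontal axis). Among the classes the octamer bars stand over H2A and H2B alone, 44.4% of H2B promoters against 1.74% of all promoters for the exact form.

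A gene was counted as near a peak when the peak's centre lay within a set distance of any of its annotated transcript starts. In the whole-series list 7 of 67 histone genes (10.4%) had a peak within 1 kb, against 2.18% of all protein-coding genes. Within 10 kb there were 21 histone genes (31.3%), against 8.66% of all genes. Within 50 kb there were 57 (85.1%), against 27.3% of all genes. These genes shared peaks, because they lie side by side. The 7 genes within 1 kb rested on 5 distinct peaks, the 21 within 10 kb on 8, and the 57 within 50 kb on 9. The median distance from a start to the nearest peak centre was 19.5 kb for the histone genes and 126.0 kb for all protein-coding genes.

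The replicate lists differed in how many of these genes they held. In replicate 1, 1 histone gene lay within 1 kb of a peak (0.535% of all genes did), 5 within 10 kb (2.29%) and 12 within 50 kb (8.16%), resting on 2 distinct peaks. In replicate 2, 9 histone genes lay within 1 kb (2.46% of all genes), 24 within 10 kb (9.69%) and 57 within 50 kb (30.1%), resting on 10 distinct peaks. All 9 whole-series peaks near histone genes overlapped a replicate 2 peak, against 86.7% of the whole list. Only 2 of the 9 overlapped a replicate 1 peak, against 22.7% of the whole list. The whole-series counts were thus nearer to those of replicate 2 than to those of replicate 1. Both replicates share 1 cell line, and with 1 group no test between conditions exists.

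**Figure D2:**
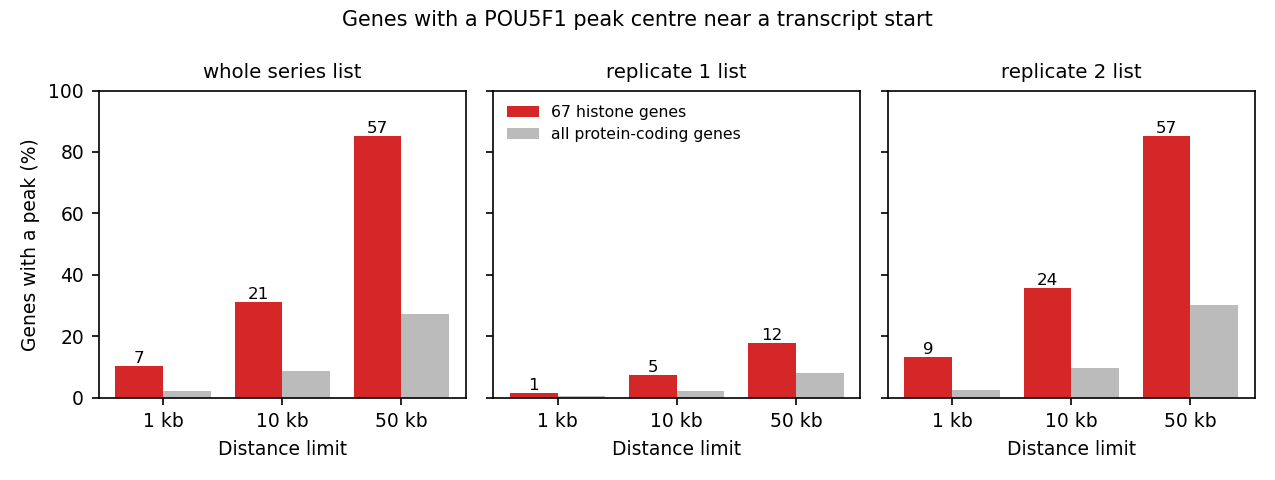
Share of genes (percent, vertical axis) with a peak centre within 1, 10 or 50 kb of a transcript start (horizontal axis) in the whole-series, replicate 1 and replicate 2 lists, for the 67 histone genes in red and all 22225 protein-coding genes in grey. Numbers on the red bars count histone genes, and the red bar is the higher of the pair in each panel, 85.1% against 27.3% within 50 kb in the whole-series list.

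By class, the whole-series list had a peak within 1 kb of 0 of 6 H1 genes, 2 of 19 H2A genes, 3 of 18 H2B genes, 0 of 11 H3 genes and 2 of 13 H4 genes. Within 10 kb the counts were 1 H1, 5 H2A, 7 H2B, 4 H3 and 4 H4 genes. Within 50 kb every H1 and H3 gene was near a peak, as were 14 H2A, 14 H2B and 12 H4 genes. The classes are interleaved in the clusters, so 1 peak can count for several of them.

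**Figure D3:**
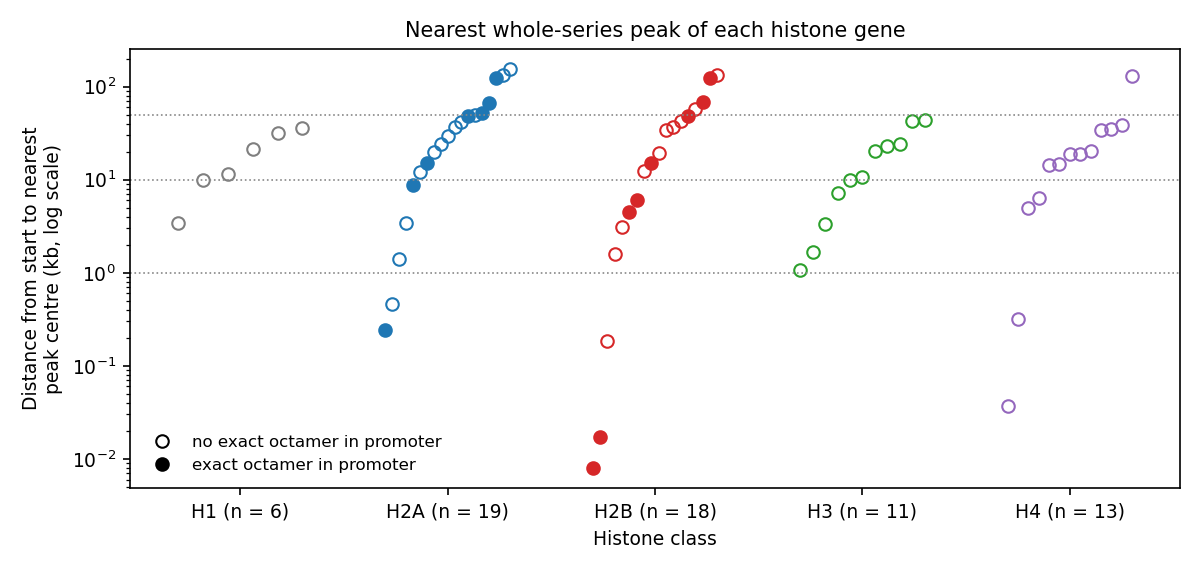
Distance in kb (vertical axis, log scale) from each histone gene's nearest transcript start to the nearest whole-series peak centre, by histone class (horizontal axis), with dotted lines at 1, 10 and 50 kb. Filled points are genes with an exact octamer in the promoter. The H2B and H4 classes reach the shortest distances, 0.008 and 0.037 kb, and filled points are spread from 0.008 to 124.0 kb.

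The histone genes fell into 6 groups when starts at most 250 kb apart were joined. On chromosome 13, a first Hist1 cluster of 327.1 kb held 23 of the genes and a second of 403.4 kb held 31. A Hist2 cluster of 49.8 kb on chromosome 3 held 9, and the Hist3 pair lay on chromosome 11. Hist1h2al on chromosome 13 and Hist4h4 on chromosome 6 stood alone. The first Hist1 cluster held 5 whole-series peaks, or 15.3 per Mb, and the second 3, or 7.44 per Mb, against 2.16 per Mb over the genome. The Hist2 cluster and the Hist3 pair held 0 between their first and last starts. The Hist2h2bb peak has its centre just outside the Hist2 span, and the Hist1h2bl peak just outside that of the first Hist1 cluster. In replicate 1 the first Hist1 cluster held 0 peaks and the second 1. Of the 5 whole-series peaks, the 3 at chr13:21992741-21993057, chr13:21993740-21994088 and chr13:22003060-22003393 lay 67.3 to 77.6 kb from Hist1h2br, the nearest histone gene, in a stretch without histone genes.

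**Figure D4:**
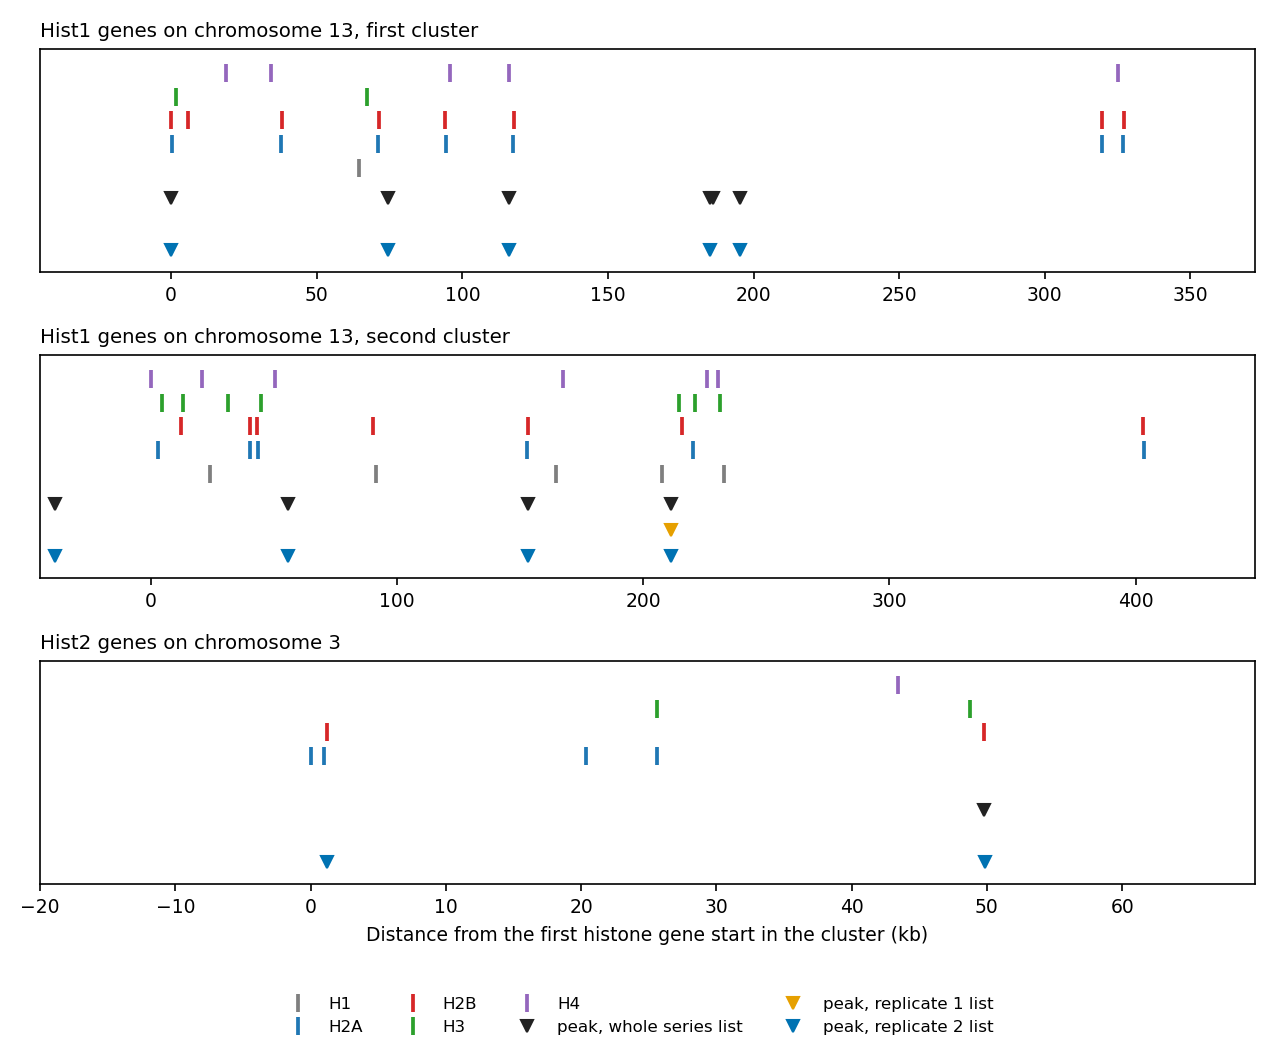
Positions of histone gene starts (bars, coloured by class) and of peak centres in the whole-series, replicate 1 and replicate 2 lists (triangles) along the first Hist1, second Hist1 and Hist2 clusters, as distance in kb from the first histone gene start in each. Replicate 1 has 1 peak in these maps, in the second Hist1 cluster, where the whole-series and replicate 2 lists also have one.

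In the H2B class, 3 genes had a whole-series peak within 1 kb, and 2 of them, Hist1h2bc and Hist2h2bb, held the exact octamer. Signal is the authors' value for each peak, on a scale that is not stated, so it is read only within its own list. The median signal was 5.58 in the whole-series list, 6.84 in replicate 1 and 8.315 in replicate 2. The p-value is likewise the authors', and no listed −log10 p was below 5.

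Hist2h2bb had its peak at chr3:96073503-96073820, with the centre 17 bp downstream of the start. This peak had a signal of 5.87 in the whole-series list (−log10 p of 8.106) and of 8.31 in replicate 2 (9.035), and replicate 1 listed none there. Its signal ranked 2148 of 5515, so it was close to the middle of the whole list. The 180 bases before the start are printed below for the 3 octamer H2B genes with a peak at the promoter in any list, with the octamer and the CCAAT box (ATTGG on the other strand) in capitals.
Hist2h2bb, chr3:96073464-96073643, plus strand: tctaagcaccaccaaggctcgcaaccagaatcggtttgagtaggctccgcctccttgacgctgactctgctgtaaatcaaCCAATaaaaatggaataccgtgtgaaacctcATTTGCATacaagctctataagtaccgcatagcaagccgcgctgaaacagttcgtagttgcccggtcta
Hist1h2bc, chr13:23775888-23776067, plus strand: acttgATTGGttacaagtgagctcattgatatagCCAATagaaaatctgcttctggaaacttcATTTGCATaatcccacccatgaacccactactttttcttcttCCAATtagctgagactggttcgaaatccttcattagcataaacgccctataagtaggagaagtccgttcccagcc
Hist2h2be, chr3:96024864-96025043, plus strand: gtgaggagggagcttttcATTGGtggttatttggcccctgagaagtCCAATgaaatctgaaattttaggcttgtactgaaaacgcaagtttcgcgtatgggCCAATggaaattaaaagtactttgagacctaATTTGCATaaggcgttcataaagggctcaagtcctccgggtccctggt

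Hist1h2bc shares its promoter with the H2A gene Hist1h2ac, which runs the other way from a start 251 bp away. The peak at chr13:23775912-23776208 lay over this shared stretch, with its centre 8 bp from the Hist1h2bc start. Its signal was 4.41 in the whole-series list (−log10 p of 8.055), rank 4384 of 5515, and 8.31 in replicate 2 (8.025), with none in replicate 1. The octamer lay 105 bp from the peak centre on the side of Hist1h2ac. Among all whole-series peaks with an exact octamer, the median distance from octamer to centre was 28 bp. At the Hist2h2bb peak this distance was 82 bp, so that octamer was off centre too.

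Hist2h2be encodes an H2B variant known in mouse from olfactory sensory neurons, and is paired in the same way with Hist2h2ac. It had a peak in the replicate 2 list alone, at chr3:96024927-96025205, with the centre 22 bp from the start, a signal of 7.56 and a −log10 p of 8.023. The whole-series list had no peak there, and the nearest one to Hist2h2be was that of Hist2h2bb.

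The other 5 octamer H2B genes had no peak within 1 kb in any of the 3 lists. Hist1h2bb was 4.49 kb and Hist1h2bm 6.09 kb from the nearest whole-series peak centre. Hist1h2bg, Hist1h2bk and Hist1h2ba were farther than 10 kb, and Hist1h2bk was 124.0 kb away. In counts, 2 of 8 octamer H2B genes had a whole-series peak within 1 kb, against 1 of 10 H2B genes without it. Over all protein-coding genes, 6.74% of those with the octamer had a whole-series peak within 1 kb, against 2.1% of those without it. Replicate 1 gave 0 of 8 (1.55% of all octamer genes), and replicate 2 gave 3 of 8 (8.55% of all octamer genes). Most octamer H2B promoters, 5 of 8, carried no peak in any list.

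By annotated start, none of the 7 H2B genes with a C6A site and no exact octamer had a peak within 1 kb in the whole-series list (2.18% of all genes) or the replicate 2 list (2.46%). At those shares 0 of 7 sets the C6A genes apart in no way. Hist1h2be is one of these 7, and its annotation matters. Its GENCODE start is the end of a first exon 35168 bases before the coding start at chr13 position 23677825. The whole-series peak at chr13:23678244-23678590, in the intron between, had its centre 592 bp upstream of that coding start. In replicate 2 the distance was 628 bp, and in replicate 1 the nearest peak was 156.0 kb away. The 250 bases before the coding start held an exact octamer, at -81, which lies outside the peak. It is printed with the octamer in capitals, because a search at annotated starts misses it.
Hist1h2be upstream of the coding start, chr13:23677887-23677918, minus strand: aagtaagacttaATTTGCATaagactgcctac

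Counted from coding starts, a choice made after this was seen, 8 histone genes had a whole-series peak within 1 kb, against 1.20% of all protein-coding genes. The added gene was Hist1h2be. The peak had a signal of 5.58 in the whole-series list (−log10 p of 11.507) and of 9.07 in replicate 2 (14.036). It also lay 4.95 kb from the start of the H4 gene Hist1h4d.

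Hist1h2bl was the third H2B gene with a peak within 1 kb, and its promoter had neither the exact nor the C6A octamer. The peak at chr13:21807672-21807978 had its centre in the coding sequence, 187 bp from the start, and 0.456 kb from the start of the H2A gene Hist1h2ai. Its signal was 6.17 in the whole-series list (−log10 p of 7.227, the lowest of the 9) and 8.31 in replicate 2 (5.558), with none in replicate 1. None of the 32-base words in this peak occurs only once in the mm9 genome. The 60 coding bases at its centre, coding positions 159 to 218, are shared letter for letter by 11 of 17 H2B genes with a single-exon coding sequence, which is why they are shown.
Hist1h2bl coding bases, chr13:21807795-21807854, minus strand: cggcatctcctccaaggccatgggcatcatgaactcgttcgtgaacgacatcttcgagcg

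Reads that lie wholly within this stretch cannot be assigned to 1 copy by sequence, and the sources used here do not say how the authors placed such reads. Many gene bodies of the core classes H2A, H2B, H3 and H4 hold such repeated sequence, with 38 genes below 50% unique words and others, such as Hist4h4 (99.6%) and Hist2h2be (94.2%), nearly all unique. The median share of 32-base words found once in the genome was 93.8% in H1 genes, 31.8% in H2A, 42.5% in H2B, 40.1% in H3 and 50.4% in H4. Promoters were more often unique, with a median of 100% and 9 of 67 below 50%, against 1560 of 22225 over all genes. A peak missing from a repeated stretch can therefore not be told apart from reads that were not placed there.

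The H2A and H2B genes form 12 head-to-head pairs, with 168 to 306 bp between the starts (median 228 bp). In 5 pairs the octamer fell in the promoter window of both genes. A peak lay within 1 kb of 2 pairs in the whole-series list, Hist1h2ac with Hist1h2bc and Hist1h2ai with Hist1h2bl. Replicate 1 had none and replicate 2 had 3, the added pair being Hist2h2ac with Hist2h2be. Of the 5 octamer pairs, Hist1h2ae with Hist1h2bg, Hist1h2ah with Hist1h2bk, and Hist1h2aa with Hist1h2ba had no peak within 1 kb in any list.

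The remaining H2A genes within 10 kb took their peak from a neighbour. Hist1h2ap (1.42 kb) and the H2B gene Hist1h2br (1.58 kb) were nearest to the Hist1h4n peak. Hist1h2an (3.43 kb) and the H2B gene Hist1h2bp (3.14 kb) were nearest to a peak at chr13:21882354-21882685. That peak lay in unique sequence, outside any protein-coding gene of the GENCODE M1 annotation, and held no exact octamer. Its signal was 5.87 in the whole-series list (−log10 p of 9.334) and 9.83 in replicate 2 (12.935). The H3 gene Hist1h3i (7.25 kb) was nearest to the same peak. Hist2h2ab lay 49.8 kb from a whole-series peak and 1.23 kb from the Hist2h2be peak of replicate 2.

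In the H4 class, whose genes encode 1 and the same protein, Hist4h4 and Hist1h4n had a peak within 1 kb. Of the peaks within 1 kb of a histone gene, that of Hist4h4 had the highest −log10 p. Its peak at chr6:136752375-136752783 had a signal of 6.75 in the whole-series list (−log10 p of 22.651), 6.22 in replicate 1 (6.662) and 11.34 in replicate 2 (19.609). It was thus in all 3 mm9 lists. The centre lay 321 bp downstream of the start, just past the end of the gene record, and 99.7% of its 32-base words were unique. An exact octamer lay 156 bp from the centre, and the promoter itself had none.

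Hist1h4n had its peak at chr13:21923868-21924189, with the centre 37 bp downstream of the start. Its signal was 5.4 in the whole-series list (−log10 p of 7.747) and 8.22 in replicate 2 (8.149), with none in replicate 1. Only 7.9% of its 32-base words were unique. Coding bases 118 to 159, which lie inside both peaks, are shown for both genes. They are identical at 37 of 42 positions, and the Hist1h4n stretch occurs in 4 of 13 H4 genes while that of Hist4h4 occurs in 1.
Hist4h4 coding bases, chr6:136752742-136752783, minus strand: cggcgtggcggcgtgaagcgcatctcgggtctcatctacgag
Hist1h4n coding bases, chr13:21923869-21923910, minus strand: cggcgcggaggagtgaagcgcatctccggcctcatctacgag

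The other H4 genes within 10 kb were Hist1h4d, described above, and Hist2h4, 6.43 kb from the Hist2h2bb peak. Among H3 genes, Hist2h3b was 1.08 kb from the Hist2h2bb peak and Hist1h3h 1.67 kb from the Hist1h2bl peak. Hist1h3c lay 3.36 kb from a peak at chr13:23833961-23834257, between it and the H1 gene Hist1h1c. This was the other peak found in all 3 lists, with a signal of 6.17 in the whole-series list (−log10 p of 9.932), 6.84 in replicate 1 (6.587) and 9.83 in replicate 2 (13.458). All of its 32-base words were unique and it held no exact octamer. Through it, Hist1h1c (3.43 kb in the whole-series list), Hist1h3c, Hist1h2bb and Hist1h2ab (8.85 kb) counted within 10 kb in each list.

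No H1 gene had a peak within 1 kb. Hist1h1c, which encodes a widely expressed linker histone, was the 1 H1 gene within 10 kb. Hist1h1b lay just beyond that limit. The testis-specific Hist1h1t lay 11.6 kb from the Hist1h2bc peak.

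In the whole-series list, the peak with the highest signal within 50 kb of any histone gene was not nearest to one. It lay at chr13:23583807-23584236, 3295 bp from a start of Btn2a2, a butyrophilin gene, and 38.9 kb from Hist1h4h. Its signal was 7.05 in the whole-series list (−log10 p of 25.419) and 11.34 in replicate 2 (26.615), where the Hist4h4 peak had the same signal, with none in replicate 1. It held an exact octamer 67 bp from its centre. For the other 8 peaks the nearest protein-coding start was that of a histone gene.

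Across the 9 whole-series peaks near histone genes, 4 held the exact octamer, against 828 of the 5515 peaks in the list. These were the peaks of Hist2h2bb, Hist1h2bc, Hist4h4 and Btn2a2. None of the 9 held the composite of SOX2 site and octamer with up to 2 mismatches, against 9.99% of all peaks. A −log10 p of at least 10 was reached by 3 of the 9, those near Btn2a2, Hist4h4 and Hist1h4d. The median of the whole list was 10.875.

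**Figure D5:**
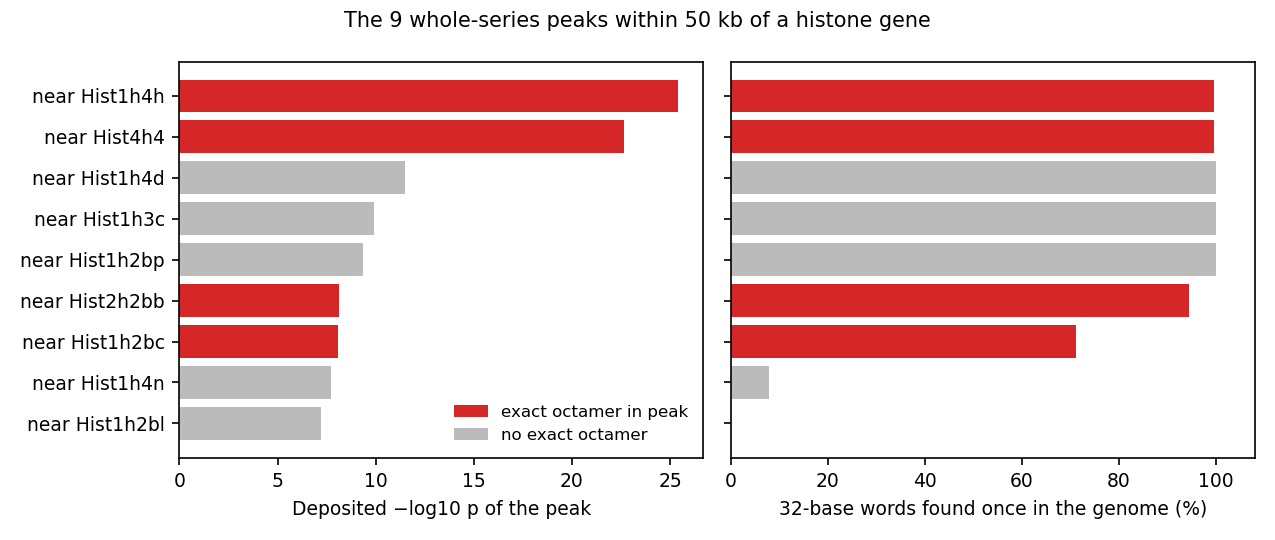
The 9 whole-series peaks within 50 kb of a histone gene, named by the nearest histone gene (vertical axis), with the deposited −log10 p of each peak on the left and the share of its 32-base words found once in the genome, in percent, on the right. Red bars hold an exact octamer. The peaks near Hist1h2bl and Hist1h4n have the lowest −log10 p, 7.227 and 7.747, and the lowest unique shares, 0 and 7.9%.

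The distance limits cut through close neighbours. Within 1 kb the farthest gene in the whole-series list was Hist1h2ai at 0.456 kb, and the first outside was Hist2h3b at 1.08 kb. Within 10 kb the farthest was Hist1h2ab at 8.85 kb, and Hist1h1b was the first outside. Within 50 kb the farthest was Hist2h2ab at 49.8 kb, and Hist3h2a was the first outside at 51.5 kb, from a peak of signal 4.99. Hist1h2al was the farthest of all, at 154.0 kb. Beyond the limit, a broad peak at chr3:96131953-96133079 lay 58.9 kb from Hist2h2bb, nearer to Fcgr1, with a signal of 6.57 in the whole-series list (−log10 p of 42.302), and it was also listed in replicate 1 (signal 7.64) and replicate 2 (12.11).

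The authors' lists on mm10 were made separately and were set beside RefSeq genes on GRCm38, for which 66 of 67 histone genes were matched. The optimal list, of 3994 peaks kept by an irreproducible discovery rate procedure, had a peak within 1 kb of the gene body of 4 histone genes (6.06%), against 7.78% of all RefSeq genes. Within 10 kb there were 13 (19.7%), against 11.3%, and within 50 kb 50 (75.8%), against 24.0%. They rested on 3, 4 and 5 distinct peaks. The conservative list of 2676 peaks had the same 5, with 5.46%, 7.95% and 17.2% of all genes near a peak. Within 1 kb the histone share was thus below that of all genes in the optimal list and slightly above it in the conservative list. Distances here run to whole gene bodies, and a long gene covers more sequence than a short one. These shares are therefore not comparable with the mm9 shares, which used transcript starts. Within 10 and 50 kb, where neighbours share peaks, it was higher in both.

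The 5 mm10 peaks lay at Hist2h2bb, inside the long RefSeq records of Hist1h2be and Hist1h2bp, near Hist1h1c and 38955 bp from Hist1h4h. The Hist1h2be peak was at mm10 chr13:23586386-23586721, with rank 2382 of 3994 by signal. Hist1h2bc and Hist2h2be had no RefSeq promoter entry, so their promoters could not be counted in any mm10 list. Of 61 histone genes with a RefSeq promoter entry, only Hist2h2bb was overlapped by an optimal peak (1.64%, against 0.880% of all promoters). That peak, at mm10 chr3:96269531-96269866, ranked 1800 of 3994. Its best entries ranked 3037 in the relaxed list of replicate 1 and 2180 in that of replicate 2, of 300000 entries each. On mm10 both replicates thus had high-ranked entries at Hist2h2bb, where the mm9 list of replicate 1 had no peak. That mm9 list holds 1330 peaks in all, fewer than the rank of 3037. The lists are of unlike depth, so the absence on mm9 cannot be set against the mm10 rank. This pattern was not particular to Hist2h2bb. The best entries at the other mm10 peaks ranked 2260 to 5170 in replicate 1 and 1254 to 3330 in replicate 2. On mm9 the replicate 1 list had no peak within 50 kb of Hist1h2be, Hist1h2bp or Hist1h4h either.

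Entries of any rank in the relaxed lists, which include background, overlapped a smaller share of the histone promoters than of all promoters. They overlapped 3 of 61 histone promoters in replicate 1 (4.92%), against 17.0% of all promoters, and 9 of 61 in replicate 2 (14.8%), against 23.6%. Among the 10000 highest entries the counts were 1 histone promoter in replicate 1 (1.53% of all promoters), that of Hist2h2bb, and 2 in replicate 2 (2.39% of all promoters), those of Hist2h2bb and Hist1h2ac. Within 500 bp of the Hist1h2bc gene body, mm10 chr13:23684199-23692480, the best entries ranked 12700 in replicate 1 and 5437 in replicate 2. The stretch within 500 bp of Hist1h2ac takes in their shared promoter. There replicate 1 had no entry, and the best of replicate 2 again ranked 5437. The replicate 1 entry of rank 12700 thus lay farther into the Hist1h2bc record, away from the shared promoter. For Hist1h2bl they ranked 38437 and 249333, and for Hist1h4n neither list had an entry. Hist4h4 had entries of rank 3103 in replicate 1 and 59791 in replicate 2, and Hist2h2be of rank 28334 and 180656. Within 500 bp of Hist2h2ac, a stretch that takes in the Hist2h2be start, the best replicate 1 entry ranked 77177. The entry of rank 28334 thus lay farther into the Hist2h2be record. The mm9 peaks of Hist1h2bl and Hist1h4n, in repeated sequence, and the replicate 2 peak of Hist2h2be, 93.5% unique, thus all lacked a high-ranked counterpart on mm10. Hist4h4, in all 3 mm9 lists, had a high-ranked mm10 entry in replicate 1 but not in replicate 2. No optimal or conservative peak lay within 10 kb of Hist4h4 or of Hist1h2bc.

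Genes that act on the histone genes or beside them were counted at the same distances, with 38 of 39 symbols matched. None had a whole-series peak within 1 kb (2.18% of all genes), 3 had one within 10 kb (7.89%, against 8.66%), and 14 within 50 kb (36.8%, against 27.3%). The 3 genes encode replication-independent H2A variants. H2afx, whose product H2A.X is phosphorylated at DNA breaks, lay 1.35 kb from a peak of signal 7.68 in the whole-series list, 6.49 in replicate 1 and 14.99 in replicate 2. H2afj lay 4.19 kb from the Hist4h4 peak, and H2afy2, which encodes a macroH2A, lay 4.59 kb from a peak of signal 5.29.

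Of 20 genes for histone gene transcription and mRNA processing, 7 had a whole-series peak within 50 kb, among them Hinfp, a regulator of H4 transcription, and Ccne1, the cyclin that drives entry into S phase. Npat, Slbp and Pou2f1 were not among them. The Hinfp peak, 27.7 kb from a start, is the same peak as that of H2afx, so 1 peak counts for both genes. Of 8 histone chaperone genes, Chaf1b and Daxx had a whole-series peak within 50 kb. These shares, 35.0% and 25.0%, were near the 27.3% of all genes. In the replicate 2 list, Srrt, whose product acts with the cap-binding complex, had a peak 0.263 kb from a start, and Daxx, an H3.3 chaperone, had one at 8.1 kb.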

How the data were processed

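The authors' peak lists were used as deposited, and no reads were processed. The mm9 lists are broadPeak and the mm10 lists narrowPeak, per the file headers. The aligner, the caller and how replicates were combined are not given in the sources used here. The deposited signal has no stated scaling. The mm9 lists hold a deposited −log10 p-value per peak and a deposited q-value. The deposited mm10 −log10 q and score were not used. Depth is unknown, each peak has 1 value without error, and no test was made.

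Peak centres were set against NCBIM37 with GENCODE M1 in Python 3.11.15 (pandas 2.3.3, numba 0.67.0), and code was checked on simulated data. Coordinates were not converted between builds. Motifs were searched on both strands from 250 bases before to 50 after the 5′ end of gene records, and 32-base words were counted over the genome. mm10 lists were set against RefSeq gene and promoter tables (GRCm38.p6).

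Members, lists and rules were chosen with earlier results of these data known. Named were members within 10 kb of a peak in any mm9 list, octamer H2B genes, genes at each distance limit, the nearest member and strongest peak per cluster, and pathway genes within 10 kb. Other genes, such as Hist1h2be at its coding start, were named after their values were seen.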

Additional observations from a re-analysis of the deposited data

How the results depend on the processing

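Of 33 alternatives, 23 left a count within 1.5 times its value and 10 did not. Leaving out 1 replicate gave 1 to 9 histone genes within 1 kb of a peak, 5 to 24 within 10 kb and 12 to 57 within 50 kb, and 2 to 10 distinct peaks within 50 kb. The lowest values are those without replicate 2, that is, of the replicate 1 list alone. Only peaks with a −log10 p of at least 10 left 1 gene within 1 kb, 2 within 10 kb and 17 within 50 kb. They left 3 distinct peaks within 50 kb. The median −log10 p of the whole list was 10.875. The share of all genes under this limit was not counted. Only peaks with at least 50% unique 32-base words, chosen after seeing the data, left 4 genes within 1 kb. Allowing 1 mismatch gave 16 H2B octamer promoters, against 8 exact ones. Peak edges, gene record starts, coding starts (added after seeing the data), a wider promoter window and any annotated start kept each count they were run on within 1.5 times. The mm10 lists did so for genes within 50 kb (50). They gave 4 genes within 1 kb, 13 within 10 kb and 5 distinct peaks, which are beyond 1.5 times. These last counts are not among the 33 alternatives. All mm10 counts use gene bodies, so they are not comparable with counts from transcript starts. No paired analysis was possible because the labels give 1 group. Depth is unknown, so an absent peak does not show absent binding.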
